A study of Mus musculus with 4 samples.

Results

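The genes of cholesterol and fatty acid metabolism were followed in CD4+ T cells of mouse spleen after stimulation through CD3, in RbLoTem against RbHiTn cells. The list held 37 genes chosen by name for their place in sterol synthesis, fatty acid synthesis and fatty acid oxidation, and each was matched to the row that carries its symbol in the deposited tables. Of these 37 genes, 31 had a row among the 38588 gene models of each table, and LSS, SC5DL, ABCG1, ABCA1, ACSL5 and ACAA2 had no row and were not analysed here. Within the 31, MVK, MSMO1 and CPT1A had too few reads to enter the test, and 28 were tested.

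The study compared these transcriptomes in search of factors made by RbLoTem cells, with 2 libraries of RbLoTem and 2 of RbHiTn cells. RbLoTem cells were sorted as CD4+CD62L-CD44+FoxP3-CD45RbLo effector/memory T cells, and RbHiTn cells as CD4+CD62L+CD44-FoxP3-CD45RbHi naive T cells. All 4 libraries came from spleens of resting C57BL/6-Foxp3tm1Flv/J mice, which carry a FoxP3 reporter allele in both subsets, and the age of the mice was not given in the sources used here. All cells were cultured for 72 hours on plate-bound anti-CD3, which engages the T cell receptor complex, so that both groups were stimulated and no unstimulated library was compared. The label of 1 library per subset ends in the suffix o, which the sources leave unexplained. No source states whether the libraries of a subset were made from separate mice or cultures, so the p-values cover no more than the spread between 2 libraries, possibly technical.

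As background, cells make cholesterol from acetyl-CoA through the mevalonate pathway, and make fatty acids from the same precursor through acetyl-CoA carboxylase and fatty acid synthase. Many genes of both pathways are transcribed under SREBP transcription factors, which the escort protein SCAP carries from the endoplasmic reticulum to the Golgi when sterols are low, while INSIG proteins hold the complex back when sterols are high. LXR receptors drive sterol export. T cells stimulated through their receptor take up and build lipid for new membrane, and memory T cells are known for their use of fatty acid oxidation.

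Each library held between 4192083 and 6514106 reads in genes, of which 3795660 to 5873287 lay in exons. The tables list human symbols and human positions for mouse cells, and the genome build of the positions is not named. Levels are therefore compared here mainly between libraries for 1 gene, and order between genes is less certain. Few or 0 reads do not show low expression, as CD4 had 1 to 4 reads per library in cells sorted as CD4+. Whether mouse reads were lost on human models was not tested. Levels are given as RPKM, the exon reads of a gene scaled to the length of its exons and to the reads in genes of the library. The 2 libraries of a subset differed more than read sampling alone would give, with a chi-square of 2.15 per degree of freedom in both subsets, against 33.1 and 29.7 for a RbHiTn against a RbLoTem library.

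Lipid genes were found among those higher and among those lower in RbLoTem cells, and most of them did not pass the test. By edgeR's quasi-likelihood test with a Benjamini-Hochberg adjusted p under 0.05 over all genes tested, 6 of the 28 tested genes were higher in RbLoTem cells (FDPS, FDFT1, ELOVL1, ELOVL6, CPT2 and HADHB) and 5 were lower (SCAP, HMGCS1, LPIN1, ELOVL5 and ACSL3). These 11 genes made up 39.3% of the tested members, while 48.0% of all 6539 genes tested passed the same test, with 24.3% higher and 23.6% lower. The share of called lipid genes was thus not above that of all genes. The median log2 fold change of RbLoTem over RbHiTn was -0.09 over the 28 genes and -0.01 over all genes tested, and the median size of the change, without its sign, was 0.24 against 0.32. The test was passed with a log2 fold change at or beyond 1 in either direction by 4 members (LPIN1, ELOVL5, ELOVL6 and ACSL3), which is 14.3% of the tested members beside 14.2% of all genes tested. The RPKM values of the subsets did not overlap for 18 of the 28 genes, or 64.3%, beside 72.3% of all genes tested. Under DESeq2, 3 members were higher and 3 lower, beside a call for 26.1% of the 7686 genes that DESeq2 tested. Fewer cells that transcribe a gene and less RNA of it per cell cannot be told apart in these bulk libraries.

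**Figure D1:**
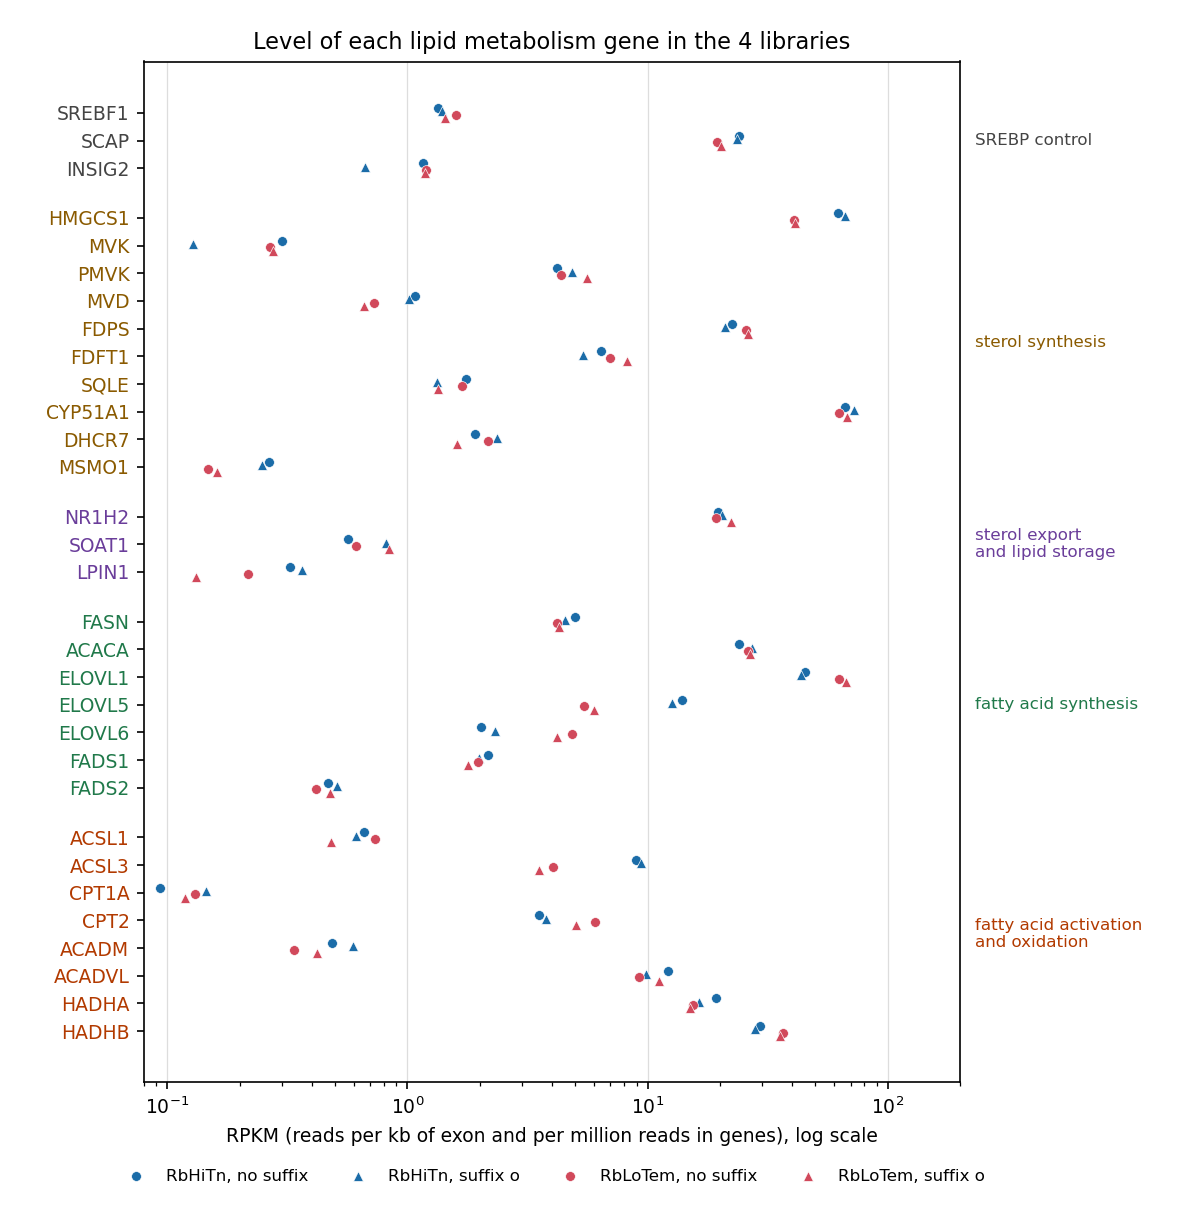
RPKM on a log scale (x axis) of each of the 31 lipid metabolism genes with a row (y axis, ordered by role) in the 4 libraries, blue for RbHiTn and red for RbLoTem, with circles for the libraries without a suffix and triangles for those with the suffix o. HMGCS1, ELOVL5 and ACSL3 lie lower and ELOVL1, ELOVL6 and HADHB higher in both RbLoTem libraries, while CYP51A1, SQLE and FADS2 overlap.

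Markers of other cells moved with the subsets. Of 18 B cell genes, 8 were tested and all 8 were lower in RbLoTem cells, beside 23.6% of all genes tested. The summed RPKM of the B cell list was 14.5 in both RbHiTn libraries and 0.679 and 0.688 in the RbLoTem libraries. MS4A1, CD79A and BLK had 0 reads in both RbLoTem libraries. Of 14 myeloid and dendritic cell genes, 5 were tested (SPI1, CTSS, IRF8, HLA-DQA1 and HLA-DRB1) and all 5 were lower, beside the same 23.6%. The summed RPKM of this list was 23.6 and 17.7 in RbHiTn and 2.42 and 2.85 in RbLoTem. SPI1 had 0 reads in both RbLoTem libraries, and CSF1R, ITGAX, LYZ, CD14, TYROBP, CD68 and HLA-DRA had 0 reads in all 4. In the RbLoTem libraries HLA-DQA1 had 2 and 3 reads and HLA-DRB1 had 0 and 2. Several of these markers, among them MS4A1, CD79A, BLK, SPI1, HLA-DQA1 and HLA-DRB1, passed the filter on low counts through the RbHiTn libraries alone. Their edgeR calls are no support beyond these reads. Whether the 5 tested genes mark cells other than B cells was not tested. The part of such cells in the lipid gene results was not tested. Of 10 T cell genes, 6 were tested. CD3E, CD3G and LCK were lower in RbLoTem, with log2 fold changes of -0.93, -1.10 and -0.26, while ZAP70 (-0.10), CD5 (0.44) and THEMIS (0.41) did not pass the test. The summed RPKM of the T cell genes was 265 and 254 in RbHiTn and 199 and 210 in RbLoTem. CD4 had 1 to 4 reads per library, and CD3D, CD2 and CD28 had 0 reads in all libraries. The CD8 T cell and NK cell genes with a row, 3 of 4, had 0 reads in all libraries.

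The machinery that controls SREBP was represented by 3 genes, of which 1 fell and none rose (33.3% called, beside 48.0% of all genes tested). SCAP, the escort of SREBP, had an RPKM of 24.1 and 23.5 in the RbHiTn libraries and of 19.4 and 20.1 in the RbLoTem libraries. Both RbLoTem values were below both RbHiTn values, by a small step. The step was -0.26 (SE 0.07) as a log2 fold change, with an edgeR adjusted p of 0.0034. The call was lost under DESeq2 (adjusted p = 0.0947) and without the RbHiTn library that has no suffix (adjusted p = 0.0601 by edgeR).

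The SREBF1 gene, which encodes SREBP-1 and is itself known as an LXR target, had few reads and did not pass the test. Its RPKM was 1.34 and 1.40 in RbHiTn and 1.60 and 1.43 in RbLoTem, from 47 to 74 reads per library. The log2 fold change was 0.15 with a 95% interval of -0.25 to 0.55 (edgeR adjusted p = 0.564). The SREBF1 model overlaps that of RAI1, which had 462 reads beside 251 for SREBF1, so that its level is less certain. INSIG2, one of the proteins that hold SCAP in the endoplasmic reticulum, rested on 11 to 30 reads per library. Its log2 fold change of 0.31 had an interval of -0.36 to 0.98, which is wide because of the few reads.

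In sterol synthesis, the enzymes of the pathway went different ways: of 12 listed genes 10 had a row and 8 were tested, with FDPS and FDFT1 higher, HMGCS1 lower and 5 not past the threshold. The called share of the 8 was 37.5%, beside 48.0% of all genes tested, and their median log2 fold change was -0.07. Summed over the pathway, the RPKM was 167.1 and 175.5 in RbHiTn and 145.6 and 153.0 in RbLoTem, and HMGCS1 and CYP51A1 made up most of that sum.

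HMGCS1, the HMG-CoA synthase of the early mevalonate pathway, was the sterol gene with the clearest difference. It had 1906 and 1315 exon reads in the RbHiTn libraries and 892 and 1247 in the RbLoTem libraries. Its RPKM was 62.2 and 66.7 in RbHiTn and 40.6 and 41.2 in RbLoTem, giving 64.5 ± 3.17 against 40.9 ± 0.455 (SD, n = 2 each). The values did not overlap, and the mean was 1.58-fold lower in RbLoTem cells. By edgeR the log2 fold change was -0.64 (SE 0.06, 95% interval -0.77 to -0.52), with an adjusted p of 2.59e-10, and the gene was called lower under all 15 alternatives of the analysis. The gene model lies on chromosome 5 at 43289497 to 43313614 in the positions of the tables.

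The promoter of mouse Hmgcs1 is shown because the gene is a known SREBP target. The 250 bases before its start (RefSeq, GRCm38.p6, plus strand, chr13:119690101-119690350) are printed with matches in capitals to TCACNCCAC, a form of the sterol regulatory element, and to CCAAT, the box bound by NF-Y, which reads ATTGG where it lies on the other strand.
Hmgcs1: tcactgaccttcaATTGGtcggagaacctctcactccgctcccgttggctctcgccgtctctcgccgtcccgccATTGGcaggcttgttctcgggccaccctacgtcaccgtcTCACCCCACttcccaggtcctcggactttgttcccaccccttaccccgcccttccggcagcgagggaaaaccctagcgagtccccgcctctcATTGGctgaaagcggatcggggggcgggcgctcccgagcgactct
The sterol element match begins 137 bases and ends 129 bases before the start, and the 3 CCAAT matches, all on the minus strand, begin 237, 176 and 45 bases before it. A match is a description of letters and not of a bound site.

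FDPS and FDFT1, which act in sequence farther down the pathway, were higher in RbLoTem cells. FDPS makes farnesyl diphosphate, which feeds sterols and protein prenylation, and had an RPKM of 22.5 and 21.0 in RbHiTn and of 25.8 and 26.1 in RbLoTem. FDFT1, the squalene synthase that commits farnesyl diphosphate to sterols, had an RPKM of 6.37 and 5.37 in RbHiTn and of 6.95 and 8.19 in RbLoTem. Neither gene overlapped between the subsets, though the FDFT1 values nearest each other were close. The log2 fold change of FDPS was 0.26 (SE 0.08, edgeR adjusted p = 0.0114), and that of FDFT1 was 0.37 (SE 0.13, edgeR adjusted p = 0.0183). These calls depended on the analysis. Under DESeq2 the adjusted p was 0.12 for FDPS and 0.199 for FDFT1. Without the RbHiTn library with suffix o the edgeR adjusted p was 0.112 for FDPS and 0.172 for FDFT1, and without the RbLoTem library with suffix o it was 0.0542 and 0.246.

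Within a library, the level of HMGCS1 over that of FDPS was 2.77 and 3.17 in RbHiTn and 1.57 and 1.58 in RbLoTem. This ratio was chosen after the values were seen, and the difference was not tested apart from the fits of the single genes.

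CYP51A1, the lanosterol demethylase, was among the most abundant members and close in level in the subsets. Its RPKM was 66.6 and 72.5 in RbHiTn and 62.9 and 67.9 in RbLoTem, with values that overlapped. Its log2 fold change was -0.07 with an interval of -0.20 to 0.06 (edgeR adjusted p = 0.37), a narrow interval around 0. Only 4 of its 5058 exon reads were counted as unique, and the CYP51A1 model overlaps that of LRRD1, to which 1274 reads were assigned, so that its level is uncertain.

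The other tested sterol enzymes did not pass the test and had few reads. PMVK, the phosphomevalonate kinase, had an RPKM of 4.20 and 4.85 in RbHiTn and of 4.35 and 5.59 in RbLoTem (log2 fold change 0.18, 95% interval -0.37 to 0.74). MVD, which makes isopentenyl diphosphate, had 1.07 and 1.01 against 0.726 and 0.659, and its log2 fold change of -0.60 had an interval from -1.26 to 0.06. SQLE, the squalene epoxidase that is a rate-limiting step, had 1.75 and 1.33 against 1.69 and 1.34. The subsets overlapped for SQLE, and the interval of its log2 fold change, -0.61 to 0.47, was wide. DHCR7, which makes cholesterol from 7-dehydrocholesterol, had 1.92 and 2.35 against 2.16 and 1.61, with an interval of -0.67 to 0.32.

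MVK and MSMO1 were described by reads alone. MVK, the mevalonate kinase, had 11 and 3 reads in RbHiTn and 7 and 10 in RbLoTem, a ratio of 1.16 after scaling by library size with an exact 95% interval of 0.537 to 2.54. MSMO1, a sterol demethylating enzyme, had 5 and 3 reads against 2 and 3, a ratio of 0.596 with an interval of 0.153 to 2.06. A difference was not detectable for either gene with so few reads. The intervals cover counting error only. The MVK model also overlaps that of MMAB, which had 91 reads. SC5DL had no row under that name, and SC5D, its current symbol, had 1 and 3 reads in RbHiTn and 4 and 0 in RbLoTem.

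Sterol export and storage had 3 tested genes of 5 listed, with 1 lower (33.3% called, beside 48.0% of all genes tested). NR1H2, the LXR beta receptor, had an RPKM of 19.6 and 20.3 in RbHiTn and of 19.3 and 22.2 in RbLoTem, and its log2 fold change of 0.07 had an interval of -0.11 to 0.26 (edgeR adjusted p = 0.539). SOAT1, which esterifies cholesterol for storage in droplets, had 0.568 and 0.815 against 0.609 and 0.841 (log2 fold change 0.15, interval -0.47 to 0.77). The subsets overlapped for both genes.

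LPIN1, a phosphatidate phosphatase that makes diacylglycerol, had few reads in all libraries and was lower in RbLoTem. It had 25 and 18 reads in RbHiTn and 12 and 10 in RbLoTem, with an RPKM of 0.324 and 0.363 against 0.217 and 0.131. Its log2 fold change was -1.0 (SE 0.38, 95% interval -1.79 to -0.22) with an edgeR adjusted p of 0.0315. With so few reads the call was among the weakest: the adjusted p was 0.373 under DESeq2, 0.113 and 0.125 by edgeR without the RbHiTn library with no suffix and with suffix o, and 0.331 without the RbLoTem library with suffix o. On log2(RPKM + 1) the log2 fold change was -0.20.

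**Figure D2:**
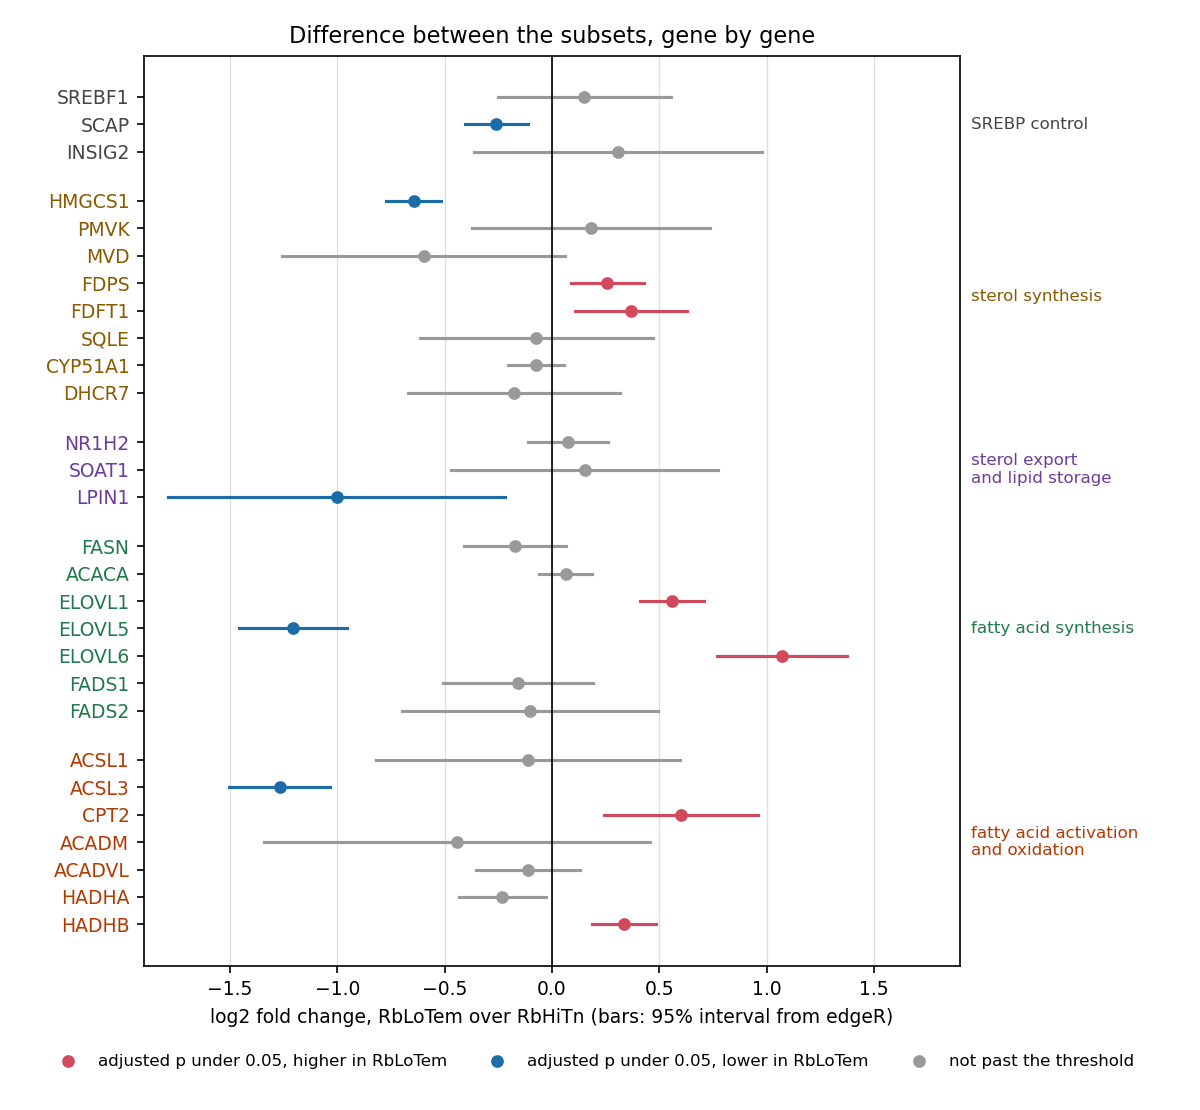
Log2 fold change of RbLoTem over RbHiTn from edgeR (x axis) for the 28 tested lipid metabolism genes (y axis, ordered by role), with bars for the 95% interval, red for higher and blue for lower in RbLoTem with an adjusted p under 0.05, and grey for genes not past the threshold. The elongases lie on both sides of 0, with ELOVL6 at 1.07 and ELOVL5 at -1.20.

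Fatty acid synthesis held the widest spread. All 7 genes were tested: ELOVL1 and ELOVL6 were higher and ELOVL5 was lower. These calls were 42.9% of the 7, beside 48.0% of all genes tested. The changed genes were all elongases, while FASN and ACACA, which build palmitate, and both desaturases did not pass. The summed RPKM of the 7 genes was 92.6 in both RbHiTn libraries and 106.0 and 110.4 in RbLoTem. The higher sum rests on ELOVL1, with a mean RPKM of 44.3 in RbHiTn and 64.9 in RbLoTem, and does not describe the other genes.

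ELOVL5 lengthens polyunsaturated fatty acids. Its exon reads were 365 and 215 in RbHiTn and 103 and 156 in RbLoTem. In RPKM these were 13.9 and 12.7 against 5.45 and 6.00, or 13.3 ± 0.831 and 5.73 ± 0.388 (SD, n = 2 each). Each RbLoTem library stood below either RbHiTn library, and the mean was 2.32-fold lower. The log2 fold change was -1.20 (SE 0.12, 95% interval -1.46 to -0.95) with an edgeR adjusted p of 8.73e-10. The model lies on chromosome 6 at 53132203 to 53213771.

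ELOVL6, which lengthens palmitate to stearate, went the other way. It had 96 and 71 reads in RbHiTn and 165 and 197 in RbLoTem. Its RPKM was 2.02 and 2.32 against 4.84 and 4.20, or 2.17 ± 0.213 and 4.52 ± 0.453 (SD, n = 2 each). The RbLoTem mean was 2.08-fold higher with no overlap. EdgeR gave a log2 fold change of 1.07 (SE 0.15, 95% interval 0.77 to 1.37) with an adjusted p of 3.37e-07, and the model lies on chromosome 4 at 110967002 to 111120355.

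ELOVL1, which lengthens very long chain saturated and monounsaturated fatty acids used in sphingolipids, was the most abundant elongase of the list. Its RPKM was 45.1 and 43.5 in RbHiTn and 62.8 and 67.0 in RbLoTem, from 448 to 1059 reads per library. The subset means were 44.3 ± 1.14 and 64.9 ± 2.93 (SD, n = 2 each), a 1.47-fold higher level in RbLoTem. On the log2 scale the fold change was 0.56 (SE 0.07, 95% interval 0.41 to 0.71) with an edgeR adjusted p of 1.28e-07, and the model lies on chromosome 1 at 43829068 to 43833696. ELOVL1, ELOVL5 and ELOVL6 each kept their direction and call under all 15 alternatives.

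Within a library, the level of ELOVL6 over that of ELOVL5 was 0.146 and 0.183 in RbHiTn and 0.887 and 0.699 in RbLoTem. For ELOVL1 over ELOVL5 it was 3.25 and 3.42 in RbHiTn and 11.5 and 11.2 in RbLoTem. The ratios were chosen after the opposite directions of these genes were seen and restate them, with no test of their own.

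**Figure D3:**
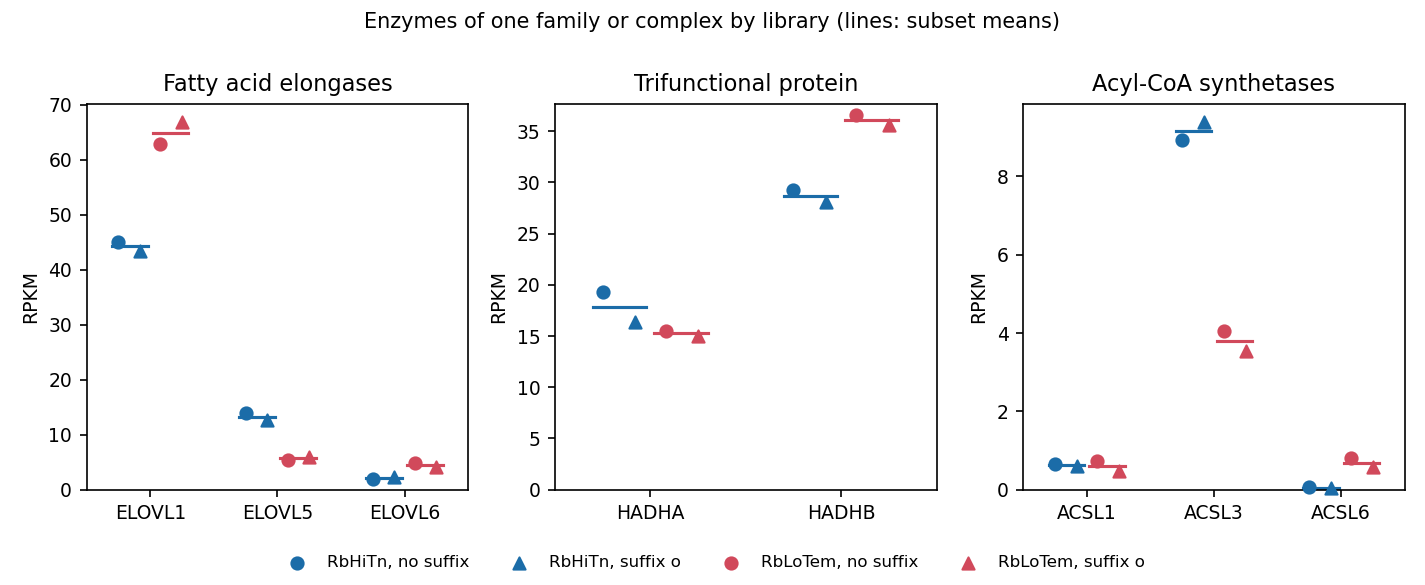
RPKM (y axis, from 0) of enzymes that belong to 1 family or complex (x axis), by library, blue for RbHiTn and red for RbLoTem, circles for libraries without a suffix, triangles for those with the suffix o, and lines at the subset means. ELOVL5 and ACSL3 are lower and ELOVL1, ELOVL6, HADHB and ACSL6 higher in both RbLoTem libraries, and HADHA lies lower in both.

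The promoters of Elovl5 and Elovl6 are shown beside each other because these genes moved in opposite directions. The 250 bases before the start (RefSeq, GRCm38.p6, plus strand) are chr9:77917115-77917364 for Elovl5 and chr3:129532136-129532385 for Elovl6, with matches to CACGTG, an E box, or to CCAAT in capitals.
Elovl5: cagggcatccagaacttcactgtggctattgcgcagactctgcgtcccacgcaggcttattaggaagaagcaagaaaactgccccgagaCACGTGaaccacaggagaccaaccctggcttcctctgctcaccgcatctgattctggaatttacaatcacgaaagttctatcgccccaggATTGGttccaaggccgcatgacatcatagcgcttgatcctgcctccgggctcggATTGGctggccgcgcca
Elovl6: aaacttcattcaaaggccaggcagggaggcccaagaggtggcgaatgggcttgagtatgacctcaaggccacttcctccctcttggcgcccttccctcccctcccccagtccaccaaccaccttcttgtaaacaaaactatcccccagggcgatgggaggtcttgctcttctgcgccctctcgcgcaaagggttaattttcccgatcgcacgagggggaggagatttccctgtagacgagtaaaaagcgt
The Elovl5 window holds CACGTG from 161 to 156 bases before the start and CCAAT on the minus strand from 71 to 67 and from 17 to 13 bases before it. The Elovl6 window holds none of the 4 motifs that were searched, which says only that these letters are not in this window. The window of Elovl1, the other elongase that was higher, holds CCAAT from 35 to 31 bases before the start.

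The enzymes that make and desaturate fatty acids did not pass the test, with a narrow interval for ACACA and wider ones for the others. ACACA, the acetyl-CoA carboxylase that makes malonyl-CoA, had an RPKM of 24.0 and 27.1 in RbHiTn and of 26.3 and 26.7 in RbLoTem, and the interval of its log2 fold change, -0.06 to 0.18, lies near 0. Of the reads assigned to the ACACA gene, 25.4% lay outside exons. FASN, the fatty acid synthase, had 4.98 and 4.54 against 4.19 and 4.26 (log2 fold change -0.17, 95% interval -0.41 to 0.06, edgeR adjusted p = 0.23). Its RbLoTem values lay below its RbHiTn values, yet the step did not pass the test. FADS1, the delta-5 desaturase, had 2.17 and 1.98 against 1.97 and 1.79, with an interval of -0.51 to 0.19. FADS2, the delta-6 desaturase, had 0.468 and 0.507 against 0.415 and 0.474, with an interval of -0.70 to 0.49. The models of FADS1 and FADS2 overlap in the tables, and 98.5% of FADS1 and 99.1% of FADS2 exon reads were counted as unique.

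Fatty acid activation and oxidation had 10 listed genes, 8 with a row and 7 tested. CPT2 and HADHB were higher, ACSL3 was lower, and ACSL1, ACADM, ACADVL and HADHA did not pass the test. The called share was 42.9%, beside 48.0% of all genes tested. For the oxidation enzymes alone the median log2 fold change of 5 tested genes was -0.11, and their summed RPKM was 64.8 and 58.8 in RbHiTn and 67.9 and 67.3 in RbLoTem. CPT1A, which admits long-chain fatty acids to mitochondria and is often used as a marker of oxidation, had 4 and 4 reads in RbHiTn and 4 and 5 in RbLoTem. This gives a ratio of 1.07 with an exact 95% interval of 0.367 to 3.19, and a difference was not detectable with so few reads.

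ACSL3, an acyl-CoA synthetase of the endoplasmic reticulum and lipid droplets that activates fatty acids for lipid synthesis, fell most among the members. It had 421 and 285 reads in RbHiTn and 137 and 165 in RbLoTem. Its RPKM was 8.93 and 9.39 against 4.05 and 3.54, or 9.16 ± 0.328 and 3.80 ± 0.357 (SD, n = 2 each). The libraries of the subsets were far apart compared with the spread within each, and the mean was 2.41-fold lower in RbLoTem. In log2 terms the fold change was -1.27 (SE 0.12, 95% interval -1.50 to -1.03) with an edgeR adjusted p of 6.97e-11, and the call held under all 15 alternatives. The model lies on chromosome 2 at 223725652 to 223809357. ACSL1, a family member of liver, fat and muscle, had 15 to 25 reads per library with an RPKM of 0.657 and 0.613 in RbHiTn and 0.733 and 0.479 in RbLoTem, and the subsets overlapped.

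CPT2, which rebuilds acyl-CoA inside mitochondria, had an RPKM of 3.52 and 3.79 in RbHiTn and of 6.04 and 5.03 in RbLoTem, from 54 to 110 reads per library. Both RbLoTem libraries were above both RbHiTn libraries. A log2 fold change of 0.60 (SE 0.18) had an edgeR adjusted p of 0.00526. The CPT2 model overlaps that of C1orf123, which had 817 reads, and only 23.4% of CPT2 exon reads crossed an exon junction. On reads across exon junctions the log2 fold change was 0.55 with an adjusted p of 0.188, and under DESeq2 it was 0.62 with an adjusted p of 0.139, so that the call was lost while the fold stayed close. Without the RbHiTn or the RbLoTem library with no suffix the adjusted p was 0.0627 and 0.0568 by edgeR.

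HADHA and HADHB encode the alpha and beta subunits of the mitochondrial trifunctional protein, which carries out the later steps of each cycle of long-chain beta oxidation. HADHB had an RPKM of 29.3 and 28.1 in RbHiTn and of 36.6 and 35.6 in RbLoTem, or 28.7 ± 0.821 and 36.1 ± 0.69 (SD, n = 2 each). HADHA had 19.3 and 16.3 in RbHiTn and 15.5 and 15.0 in RbLoTem, or 17.8 ± 2.09 and 15.3 ± 0.369. The beta subunit was thus higher in both RbLoTem libraries, while the alpha subunit was lower in both. For HADHB the log2 fold change was 0.34 (SE 0.07, 95% interval 0.19 to 0.48) with an edgeR adjusted p of 0.000244, and it was called under all 15 alternatives. For HADHA it was -0.23 (SE 0.10, 95% interval -0.43 to -0.03), and the adjusted p of 0.0531 just missed the threshold.

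The HADHA value moved with the libraries and the analysis. Without the RbHiTn library with no suffix its log2 fold change was -0.089 (edgeR adjusted p = 0.638), and without the one with suffix o it was -0.34. HADHA crossed the threshold under 4 of the 15 alternatives, and under the other 11 the adjusted p was between 0.0517 and 0.638, with 0.412 under DESeq2. Under the 4 it was 0.0289 on reads across exon junctions, 0.0278 with scaling by library totals alone, 0.0228 on unique reads and 0.0228 without the RbHiTn library with suffix o. The level of HADHB over that of HADHA was 1.52 and 1.72 in RbHiTn and 2.36 and 2.38 in RbLoTem, with no test of the ratio itself. The human models of HADHA (chromosome 2, 26413504 to 26467594) and HADHB (26466038 to 26513336) overlap at their ends, and all HADHB exon reads were counted as unique.

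In the mouse, these genes lie on chromosome 5 and are read in opposite directions from starts that are 273 bases apart (30154980 for Hadha and 30155253 for Hadhb in GRCm38.p6). The 250-base windows before the starts share 228 bases. The Hadhb window is shown because HADHB was higher in RbLoTem and the HADHA values were not, although their promoters are largely the same sequence, and that of Acsl3 because it is the member that fell most. The positions are chr5:30155003-30155252 for Hadhb and chr1:78657575-78657824 for Acsl3, plus strand, with motif matches in capitals.
Hadhb: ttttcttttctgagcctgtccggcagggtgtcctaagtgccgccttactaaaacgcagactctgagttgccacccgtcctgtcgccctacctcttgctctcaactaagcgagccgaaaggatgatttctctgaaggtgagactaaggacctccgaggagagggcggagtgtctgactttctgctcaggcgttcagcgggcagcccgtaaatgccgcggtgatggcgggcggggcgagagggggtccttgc
Acsl3: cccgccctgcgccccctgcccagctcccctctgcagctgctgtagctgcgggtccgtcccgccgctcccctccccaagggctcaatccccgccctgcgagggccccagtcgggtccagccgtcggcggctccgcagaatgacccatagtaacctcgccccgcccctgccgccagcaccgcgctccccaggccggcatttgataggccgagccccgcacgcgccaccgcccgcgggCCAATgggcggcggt
The Acsl3 window holds CCAAT from 15 to 11 bases before the start, and the Hadhb window holds none of the 4 motifs.

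The acyl-CoA dehydrogenases open each turn of beta oxidation. ACADVL, for very long chains, had an RPKM of 12.2 and 9.84 in RbHiTn and of 9.25 and 11.1 in RbLoTem, with subsets that overlapped and an interval of -0.35 to 0.13 for the log2 fold change. ACADM, for medium chains, had 7 to 14 reads per library and an interval of -1.34 to 0.45. Its model overlaps that of RABGGTB, which had 878 reads, and its values are correspondingly uncertain.

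**Figure D4:**
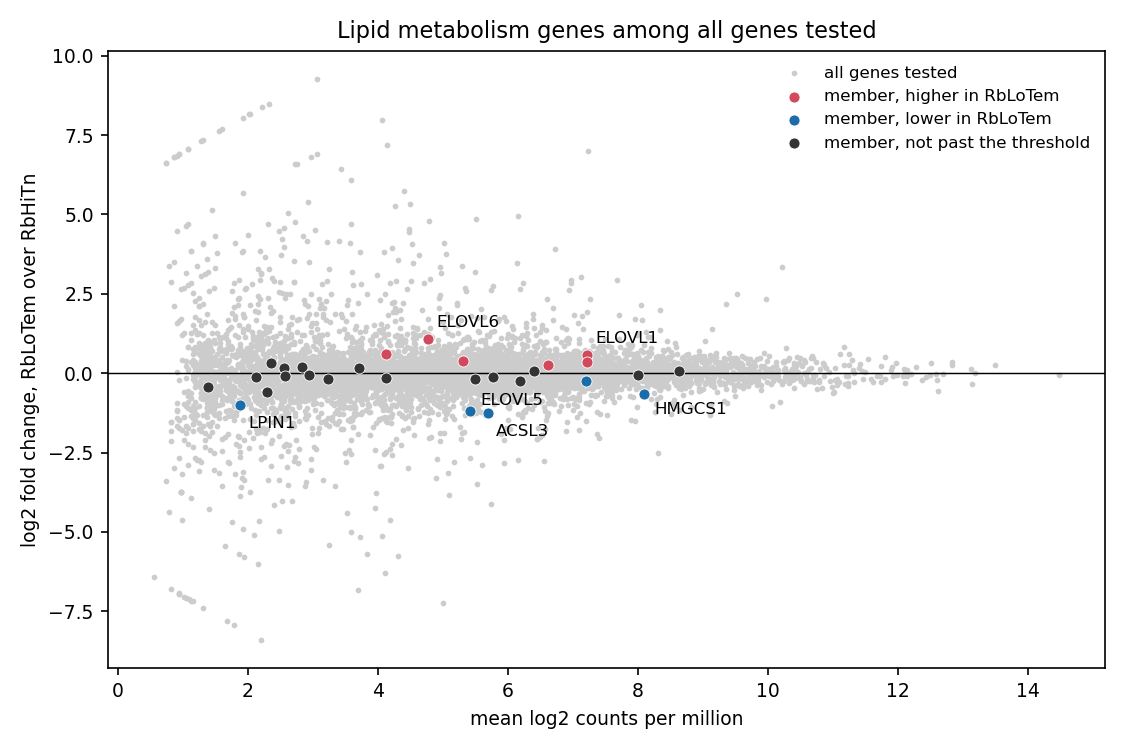
Log2 fold change of RbLoTem over RbHiTn (y axis) against mean log2 CPM (x axis) for all 6539 genes tested in grey, with the 28 lipid metabolism genes in red for higher, blue for lower and black for not past the threshold. All 28 lie between -1.27 and 1.07, while other genes reach far larger changes.

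The rest of these pathways was read from a further list of 87 genes, of which 63 had a row, 53 had reads and 33 were tested. By edgeR 7 were higher in RbLoTem cells, among them ACSL6, SLC25A20, ETFB, PPARG and AGPAT1, which is 21.2% beside 24.3% of all genes tested, and 0 were lower. At an unadjusted p under 0.05 edgeR put 1 lower, and DESeq2 and limma called 0 lower. The median log2 fold change of the 33 genes was 0.06. By role, 5 of 15 genes of fatty acid activation, uptake and oxidation were higher, 1 of 6 of sterol synthesis and 1 of 4 of glycerolipids. The count was 0 of 5 for fatty acid synthesis and 0 of 3 for sterol uptake and LXR, each beside 24.3% of all genes tested. The 7 and the 5 include PPARG and ACSL6. These 2 genes passed the filter on low counts through the RbLoTem libraries alone and add no support to the counts.

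PPARG, the lipid-sensing nuclear receptor PPAR gamma, and ACSL6, another acyl-CoA synthetase, had the largest log2 fold changes among the tested genes of this list. PPARG had 8 and 2 reads in RbHiTn and 85 and 105 in RbLoTem, a ratio of 18.1 with an exact 95% interval of 9.63 to 38.4. ACSL6 had 5 and 2 reads against 49 and 48, a ratio of 13.2 with an interval of 6.17 to 33.7. Both genes had fewer than 10 reads in each RbHiTn library and passed the filter on low counts through the RbLoTem libraries alone, so their edgeR calls are no support beyond these reads. The log2 fold change of PPARG, 4.18 with all libraries, was 5.11 without the RbHiTn library with no suffix and 3.79 without the one with suffix o. The level of ACSL6 over that of ACSL3 was 0.0066 and 0.0039 in RbHiTn and 0.198 and 0.161 in RbLoTem, with ACSL3 the higher in every library.

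Upstream of both synthesis pathways, ACLY, which makes cytosolic acetyl-CoA, had an RPKM of 149 and 153 in RbHiTn and of 158 and 162 in RbLoTem, and it did not pass the test (log2 fold change 0.10, edgeR adjusted p = 0.11). INSIG1, a known SREBP target that holds SCAP in the endoplasmic reticulum as INSIG2 does, had a log2 fold change of 0.05 with an edgeR adjusted p of 0.764.

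Motifs were counted in the 250 bases before each start, on both strands, in the 41 windows of the listed genes that RefSeq has an entry for (31 genes, not the same 31 as those with a row), among 32851 windows in all. TCACNCCAC was in 4.88% of the members' windows (Hmgcs1 and Acsl1) and in 1.05% of all windows. CACGTG was in 12.2% (Abca1, Dhcr7, Sc5d, Elovl5 and Scap) against 6.02%, and CCAAT in 48.8% against 33.8%. The spaced direct repeat known as the LXR element was in 0 member windows and in 0.0152% of all. CACGTG reads the same on both strands, and in the members' windows no match of 1 motif overlapped that of another. Of the 5 genes whose windows hold CACGTG, SCAP and ELOVL5 were lower, DHCR7 did not pass the test, ABCA1 had no row, and SC5D had too few reads for the test. Of all genes tested 23.6% were lower, and a link between motif and direction was not tested.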

How the data were processed

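RNA-seq libraries of RbLoTem and RbHiTn cells (2 each, grouped by title) were used. Per the labels, Trimmomatic, TopHat, HTSeq, DESeq2 and mm10 were used by the submitters. The tables nevertheless list human models, and no source names the aligner, annotation or build behind them or says whether strand was counted, so that paralogs and antisense genes may share reads. Few models (under 200) are listed for each of 10 chromosomes. The authors deposited read counts per model, RPKM values and a median coverage signal, which was left out. The deposited RPKM was recomputed from the total exon reads, the exon length and the reads in genes, and matched.

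The test was edgeR (4.0.16, R 4.3.3) on total exon reads with TMM scaling, filterByExpr and the quasi-likelihood fit, with no replicate block and an adjusted p under 0.05. TMM factors were 0.991 to 1.013, and edgeR's common biological variation was 0.0432. The script was tested on simulated data. The SE is the log2 fold change, without sign, over the square root of F. Read ratios have exact intervals that cover counting error only. As alternatives, DESeq2 (1.42.0), limma (3.58.1; log2 of RPKM with 0.1 or 1 added), other scaling, filters and read classes, a replicate block by suffix and fits without each library were run, with reads across exon junctions added after seeing the data.

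Members and lists were chosen with earlier results of these data known. All members are named. Other pathway genes are named when called with a log2 fold change of 1 or more in either direction. SLC25A20, ETFB and AGPAT1 complete a count, and ACLY and INSIG1 were chosen after their values were seen. Some genes of the lists are not reported here. Promoters and starts are from RefSeq.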

Additional observations from a re-analysis of the deposited data

How the results depend on the processing

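Of the 11 called members, HMGCS1, ELOVL1, ELOVL5, ELOVL6, ACSL3 and HADHB were called in the same direction under all 15 alternatives, and of the 17 not called, HADHA alone was called under any. Of 449 values of named genes under an alternative, 410 kept direction and call, 22 lost and 4 gained a call, and 13 changed direction. The cause was not tested for any of them.

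Under DESeq2, 929 of all genes were lower (1074 higher), 3 members were higher and 3 lower, and 0 sterol and 1 activation and oxidation genes were higher. On reads across exon junctions, 1 sterol gene was higher, 1 activation and oxidation gene was higher and 2 were lower, and 1 other pathway gene was lower. With limma, 1 sterol gene was higher under either pseudocount. With library totals and with unique reads, 2 activation and oxidation genes were lower. Of the other pathway genes, 1 was lower with no filter and 3 with total gene reads.

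Without 1 library at a time, 1237 to 1483 of all genes were higher and 1217 to 1381 lower, 4 to 5 members were higher and 3 to 5 lower, 0 to 2 sterol genes were higher, 1 to 2 activation and oxidation genes were higher and 1 to 2 lower, and 4 to 7 other pathway genes were higher and 0 to 1 lower. The log2 fold change then crossed 0 for PMVK (-0.027 to 0.34), SQLE (-0.22 to 0.18), DHCR7 (-0.37 to 0.054), NR1H2 (-0.032 to 0.17), SOAT1 (-0.13 to 0.38), ACACA (-0.022 to 0.14), ACSL1 (-0.40 to 0.21) and ACADVL (-0.26 to 0.073), none of them called. With total gene reads it was -0.031 for ACACA and 0.12 for ACADM.

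The deviations of libraries with the same suffix from their subset means were not correlated (-0.01 over 6539 genes). With 2 libraries per subset, this cannot show whether the suffix marks a shared mouse, culture or run. With a replicate block on the suffix, 1562 genes were higher and 1530 lower, with 6 members higher and 5 lower and 6 other pathway genes higher. Other scalings moved the median log2 fold change of all genes by -0.02 and 0.01. CYP51A1 could not be tested on unique reads. Genes with few reads, such as ACADM with 7 to 14 per library, have intervals that include changes as large as several of those called.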

Other observations

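Some pathway genes with too few reads for the test differed between the subsets in raw reads. They were picked after their values were seen and have no test, and their intervals cover counting error only. SOAT2, a cholesterol acyltransferase known from liver and intestine, had 1 and 0 reads in RbHiTn and 11 and 10 in RbLoTem, a ratio of 20.01 with an exact 95% interval of 3.22 to 828. MGLL, the monoacylglycerol lipase, had 0 reads in both RbHiTn libraries and 6 in each RbLoTem library, at least 3.81-fold higher where 3 reads in the group as a whole are taken as the floor. That bound leaves out the counting error of the RbLoTem reads, and the exact 95% interval of the ratio begins at 2.65. MYLIP, a ubiquitin ligase and known LXR target, went the other way, with 12 and 7 reads in RbHiTn and 1 and 3 in RbLoTem, a ratio of 0.201 with an interval of 0.0496 to 0.604.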
